A study of Mus musculus with 12 samples.

Results

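Nuclear oxidative phosphorylation subunits are the proteins of the respiratory chain and ATP synthase whose genes lie in the nucleus. They were taken as the protein-coding genes whose symbols begin with Nduf and a subunit letter and number, Sdha to Sdhd, Uqcr, Cox4 to Cox8, or Atp5. This name rule, which used no measured value, found 84 genes among the 47069 distinct genes of the table. Complex I had 35 members, complex II 4, complex III 8, complex IV 20 and complex V 17. Ndufa4 and Ndufa4l2 were placed with complex IV, where the NDUFA4 protein is now assigned. The name rule misses a few subunits, such as cytochrome c1, which are described separately.

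The study profiled total RNA from cells of Pdgfra-H2BGFP mice, a knock-in line in which the Pdgfra gene drives a nuclear green fluorescent protein (GFP), sorted for GFP. There were 4 groups of 3 libraries each: the forebrain (called brain here) and the spinal cord, each at the embryonic age E13.5 and at postnatal day 7 (P7). All groups carry the same reporter, and none was treated. Each library was a pool of animals of both sexes. Pdgfra marks oligodendrocyte precursor cells, but the reporter protein outlasts the Pdgfra transcript, so cells that have begun to differentiate can still be sorted, and Pdgfra is also active in vascular and leptomeningeal cells. E13.5 tissue was dissociated mechanically and P7 tissue with papain, so age and dissociation cannot be told apart.

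Oxidative phosphorylation makes most of the ATP of a resting cell. Complexes I and II pass electrons from NADH and succinate to ubiquinone, complex III passes them to cytochrome c, and complex IV to oxygen, while complexes I, III and IV pump protons that drive the ATP synthase, complex V. Most subunits are encoded in the nucleus and imported, and a small set is encoded by mitochondrial DNA (mtDNA). Several nuclear subunits exist as paralogs, of which some are restricted to heart and skeletal muscle, lung or testis. Oligodendrocytes depend on mitochondrial ATP while they mature, and mature ones also use glycolysis heavily.

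Values are CPM, each gene's read count divided by a rescaled library size. The libraries held between 12566345 and 38790312 recovered reads. The 84 genes held between 0.453% and 0.749% of the protein-coding reads of a library. E13.5 spinal cord replicate 3 stood apart: 41.0% of its reads were on protein-coding genes, against 82.4% to 91.2% in the other 11 libraries, and its short transcripts ran high. Over protein-coding genes of up to 1000 bases of exonic length (282 genes), the median of this library was 0.80 above the mean of the other replicates of its group on the log2 scale, and over those longer than 5000 bases (6300 genes) it was -0.19. Counts and medians of the members are therefore also given without it, as are many of the single genes that are described. The deposited scaling of the P7 brain libraries was 13.1% to 16.3% above a recomputed TMM scaling and matched it in the other 9 libraries, which lowers P7 brain values by about 0.2 on the log2 scale. Counts and medians of the members in comparisons that involve P7 brain are therefore set against all genes tested and given with TMM scaling too, and a named member whose call TMM scaling changed is given with both.

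Of the 84 genes, 78 passed the filter of 0.7 CPM in at least 3 libraries. The 6 that did not are all complex IV paralogs: Cox4i2, Cox6a2, Cox7a1, Cox7b2, Cox8b and Cox8c. Every member of complexes I, II, III and V passed. Levels were compared between genes only as CPM per kb of exonic length. On that scale, averaged over the 12 libraries, Atp5a1, the alpha subunit of the ATP synthase catalytic head, was highest in complex V at 183 and Atp5s, a coupling factor, lowest at 3.21. Cox8a led complex IV at 125, and Ndufa4l2 was lowest there among the genes tested at 0.68. In complex I the range ran from 3.02 for Ndufb2 to 64.8 for Ndufc2, in complex II from 20.4 for Sdhc to 41.7 for Sdhd, and in complex III from 10.6 for Uqcrq to 65.2 for Uqcrh. The exonic length counts every annotated exon, so genes with long minor transcripts, such as Ndufb2 (5628 bases), come out low.

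The proton-conducting ring of complex V is built from subunit c, which in the mouse is made from 3 nuclear genes, Atp5g1, Atp5g2 and Atp5g3. They differ in the targeting peptide that is cut off after import and encode the same mature protein. The last 225 coding bases before the stop codon, from the GENCODE M21 transcripts, are shown because they let a reader see how reads of the 3 genes can be told apart. Capitals mark the 57 positions at which the 3 genes are not all alike.
Atp5g1: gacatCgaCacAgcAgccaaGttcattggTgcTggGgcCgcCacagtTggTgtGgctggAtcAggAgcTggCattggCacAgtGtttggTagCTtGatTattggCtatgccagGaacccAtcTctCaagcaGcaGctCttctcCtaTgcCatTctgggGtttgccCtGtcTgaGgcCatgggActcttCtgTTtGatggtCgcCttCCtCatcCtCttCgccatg
Atp5g2: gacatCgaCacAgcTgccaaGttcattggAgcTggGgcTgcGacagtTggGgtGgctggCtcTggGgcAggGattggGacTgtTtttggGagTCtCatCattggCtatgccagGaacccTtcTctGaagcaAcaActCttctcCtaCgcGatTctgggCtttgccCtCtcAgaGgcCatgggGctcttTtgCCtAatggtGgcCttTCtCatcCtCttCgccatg
Atp5g3: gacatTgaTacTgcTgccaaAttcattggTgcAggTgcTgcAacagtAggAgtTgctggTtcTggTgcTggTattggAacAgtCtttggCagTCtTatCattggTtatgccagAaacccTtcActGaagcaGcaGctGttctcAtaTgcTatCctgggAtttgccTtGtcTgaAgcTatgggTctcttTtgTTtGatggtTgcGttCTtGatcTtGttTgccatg
With the stop codon included, Atp5g1 and Atp5g2 were 85.1% identical, Atp5g1 and Atp5g3 79.8%, and Atp5g2 and Atp5g3 78.5%. The longest run shared by any pair was 21 bases, between Atp5g1 and Atp5g2. The processed pseudogenes Gm10175 and Gm10231 matched its 441 coding bases at 100%, so reads from inside the coding sequence cannot be told apart between them.

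Nuclear respiratory factor 1 (NRF1), GABPA (also called NRF2) and YY1 are transcription factors known for binding promoters of respiratory genes. Promoter windows of 300 bases, from 250 before to 50 after the start, were available from RefSeq (GRCm38.p6) for 66 of the 84 genes. The NRF1 letters GCGCNTGCG, on either strand, were found for 23 of these 66 genes (34.8%), against 14.2% of the 11614 tested genes that had a window. The YY1 letters ANATGGCGG were found for 7 (10.6%, against 4.30%), and the GABPA letters CCGGAAGT for 5 (7.58%, against 8.23%). Windows per gene averaged 1.08 for the members and 1.28 for the tested genes. Not all matches of genes that are described further on are shown. Sdha and Atp5o, among others, also held the NRF1 letters, and Ndufa8 and Cox8a held a further match. For some of the genes a site is given, on the strand of the gene, with the matched letters in capitals.
Atp5g2 NRF1 (chr15:102671071-102671099): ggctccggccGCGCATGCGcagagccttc
Ndufa8 NRF1 (chr2:36049329-36049357): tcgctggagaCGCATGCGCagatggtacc
Ndufa12 NRF1 (chr10:94198905-94198933): ctccagctctGCGCCTGCGtagaacgacc
Uqcr10 NRF1 (chr11:4704325-4704353): ttgggttctaCGCAAGCGCagtggcgcga
Cox8a GABPA (chr19:7217605-7217632): tttccgaaatACTTCCGGctcgggcgtc
Atp5b YY1 (chr10:128083312-128083340): cacccggattCCGCCATGTtgagtcttgt
The Atp5g2 match overlaps a match on the other strand. The median P7 minus E13.5 difference in spinal cord was 0.72 for 23 genes with the NRF1 letters and 0.64 for 40 without. A match of letters is a description of the window and not a mapped binding site.

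The first comparison asked how the subunits differed between E13.5 and P7 in the spinal cord. Nearly all were higher at P7: 61 of the 78 members rose at an adjusted p under 0.05, and none fell. Among all 18319 genes tested, 39.1% rose and 30.9% fell by the same rule. The median member difference was 0.68 on the log2 scale, against 0.12 over all genes tested. With the study's further condition of more than 2-fold, 13 members rose (background 16.9%). Without E13.5 spinal cord replicate 3, 76 of 78 rose (background 44.0%), 34 of them over 2-fold (background 18.7%), and the median was 0.96 against 0.15. In bulk RNA, fewer cells of a type and less RNA per cell cannot be told apart.

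**Figure D1:**
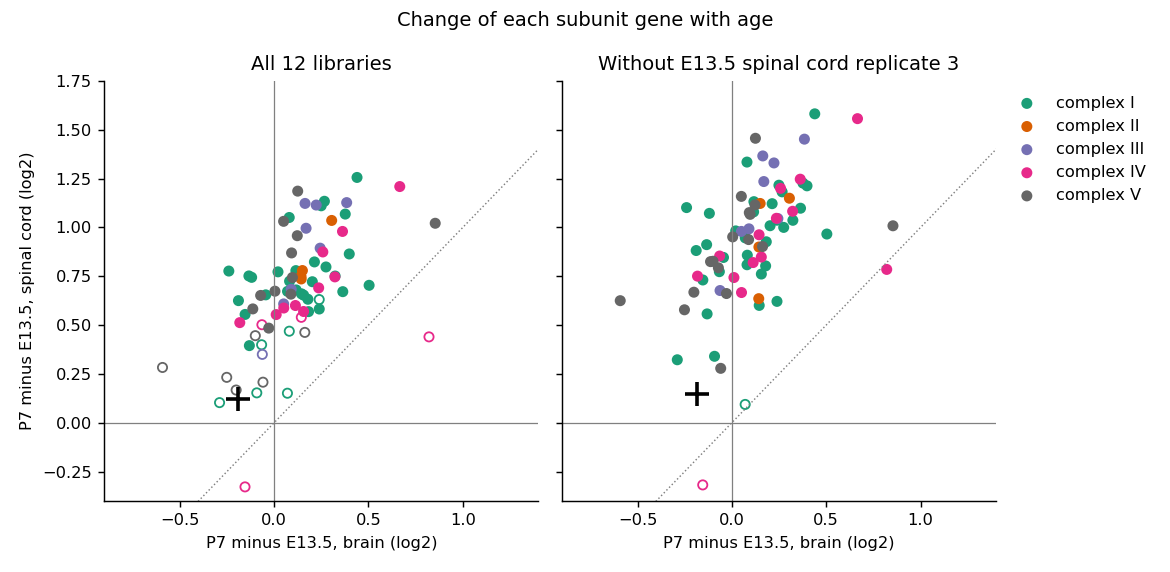
P7 minus E13.5 difference of each of the 78 tested subunit genes in brain (horizontal axis, log2) and in spinal cord (vertical axis, log2), with all 12 libraries on the left and without E13.5 spinal cord replicate 3 on the right. Colours give the complex, filled points passed an adjusted p of 0.05 in spinal cord, the black cross is the median of all genes tested, and the dotted line marks equal change. Most points lie above the dotted line in both panels, and 61 points are filled on the left and 76 on the right.

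By complex, 29 of 35 members rose in complex I (median 0.68), all 4 in complex II (median 0.76), 7 of 8 in complex III (median 0.94), 10 of 14 in complex IV (median 0.58) and 11 of 17 in complex V (median 0.65). Without the library that stood apart, these became 34 of 35, 4 of 4, 8 of 8, 13 of 14 and 17 of 17. Cox6b2, a paralog known from testis, was the only member below 0 in spinal cord, at -0.33 ± 0.21 (SE), adjusted p = 0.189, which did not pass. Members with no stretch of at least 100 bases at 95% identity in another annotated gene (45 of 78) gave a median of 0.70, and the 33 with such a stretch 0.67. Such a stretch can lie in a gene that overlaps the member, so this split does not separate members with copies from members without.

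In complex I, Ndufa8, an accessory subunit of the membrane arm, had the largest rise of the 78. It stood at 18.2, 23.3 and 25.8 CPM in brain at E13.5 and 33.3, 29.7 and 28.1 at P7, and at 12.4, 14.4 and 26.8 in spinal cord at E13.5 and 43.2, 40.6 and 39.5 at P7, in replicate order. All P7 spinal cord libraries lay above all E13.5 ones, and E13.5 spinal cord replicate 3 lay above every E13.5 brain library. The rise was 2.39-fold (1.26 ± 0.22 (SE), adjusted p = 0.000272), and 2.99-fold without that replicate. The 7 core subunits of complex I named for this work all rose, by 0.58 for Ndufs3 to 0.86 for Ndufs8. Without that replicate the range was 0.60 for Ndufs1 to 1.21 for Ndufs8. Ndufs1, the large iron-sulfur subunit, has the longest exonic length of the members (8086 bases) and was not raised in replicate 3. Its values were 95.4, 104 and 92.8 CPM in brain at E13.5 and 106, 107 and 110.1 at P7, and at 90, 91.5 and 80.1 in spinal cord at E13.5 and 142, 138 and 135 at P7. The 3 E13.5 spinal cord libraries lay close together and below all P7 ones, and the difference was 0.66 ± 0.08 (SE), adjusted p = 9.09e-06.

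Complex II is succinate dehydrogenase, which also belongs to the citric acid cycle, and has no mtDNA-encoded subunit. Sdha, its flavoprotein, stood at 127, 135 and 134 CPM in brain at E13.5 and 145, 147 and 145 at P7, and at 113, 113 and 88.9 in spinal cord at E13.5 and 177, 174 and 176 at P7. The E13.5 spinal cord libraries were the lowest of all 12, with replicate 3 the lowest, and the difference with age was 0.75 ± 0.09 (SE), adjusted p = 1.38e-05. Sdhd, a membrane anchor, had the largest difference in the complex, 1.04 ± 0.11 (SE), adjusted p = 2.86e-06. Sdhb and Sdhc also rose, by 0.78 and 0.74. Without replicate 3, Sdhb stood at 1.12.

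In complex III, Uqcrfs1, the Rieske iron-sulfur protein, stood at 49.3, 60.2 and 57 CPM in brain at E13.5 and 62.4, 62.5 and 61.2 at P7, and at 35.3, 35.5 and 59.1 in spinal cord at E13.5 and 93.5, 94.3 and 88.6 at P7. Every P7 spinal cord library was above every other library, and the rise in spinal cord was 2.18-fold (1.12 ± 0.16 (SE), adjusted p = 4.43e-05). The core proteins Uqcrc1 and Uqcrc2 rose by 0.61 (adjusted p = 0.0399) and 0.89 (adjusted p = 2.08e-05). The 3 differences were 1.37, 0.98 and 1.05 without E13.5 spinal cord replicate 3. Uqcrc1 was among the members highest in replicate 3, at 154 CPM, against 65.9 and 76.3 in replicates 1 and 2 of its group.

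In complex IV, Cox8a, the common form of the smallest subunit, rose most. It stood at 53.6, 43.2 and 63.3 CPM in brain at E13.5 and 86.9, 84.8 and 80.3 at P7, and at 39.4, 40.4 and 82.8 in spinal cord at E13.5 and 121, 116 and 118 at P7. The ages did not overlap in either region. Its difference was 1.21 ± 0.23 (SE), adjusted p = 0.000432 in spinal cord and 0.67 ± 0.23 (SE), adjusted p = 0.0234 in brain. Cox5a and Cox5b, which sit on the matrix side, rose by 0.51 and 0.87. In spinal cord, Cox8a, Cox5a and Cox5b stood at 1.56, 0.75 and 1.20 when replicate 3 of the E13.5 group was left out. Cox4i1, the common form of subunit IV, stood at 114, 120.4 and 151 CPM in brain at E13.5 and 145, 148 and 130.3 at P7, and at 90.2, 103 and 232 in spinal cord at E13.5 and 198, 194 and 172 at P7. Replicate 3 of the E13.5 spinal cord, at 232 CPM, was the highest of all 12 libraries while its other replicates were the lowest. With it the difference was 0.54 ± 0.27 (SE), adjusted p = 0.0885, and without it 0.96 ± 0.12 (SE), adjusted p = 1.04e-05, so this library decides the call.

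In complex V, Atp5b, the catalytic beta subunit, stood at 529, 579 and 635 CPM in brain at E13.5 and 594, 606 and 599 at P7, and at 350.4, 409 and 494 in spinal cord at E13.5 and 861, 859 and 818 at P7. The P7 brain libraries fell inside the E13.5 brain range, while the P7 spinal cord libraries were above all others. The rise in spinal cord was 2.04-fold (1.03 ± 0.14 (SE), adjusted p = 2.3e-05). Its partners in the catalytic head rose too, Atp5a1 by 0.87 and Atp5c1, the central stalk gamma subunit, by 0.67. Atp5b, Atp5a1 and Atp5c1 stood at 1.16, 1.08 and 0.95 without E13.5 spinal cord replicate 3. Atp5g2 stood at 49.4, 55.6 and 62.9 CPM in brain at E13.5 and 60.7, 62.9 and 58.9 at P7, and at 30.2, 34.9 and 57.4 in spinal cord at E13.5 and 95.2, 88.3 and 86.6 at P7, a rise in spinal cord of 2.28-fold (1.19 ± 0.18 (SE), adjusted p = 7.89e-05), and of 1.46 without that replicate. Its identical pseudogenes Gm10175 and Gm10231 share its reads and were at 45.0% to 56.5% of it in sum in each library.

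The same comparison in brain gave smaller differences. At an adjusted p under 0.05, 8 of 78 members rose and 1 fell, where 23.7% of all genes rose and 37.6% fell, and none passed 2-fold (background 27.7%, 9 members had an unadjusted p under 0.05, and limma-voom and edgeR each gave 1 over 2-fold, Ndufa4l2). The member median was 0.12, against -0.19 over all genes, a relative median of 0.31. With TMM scaling, 22 rose and none fell (background 30.5% and 28.7%), 1 of them over 2-fold (background 13.4%), and the relative median was 0.32. Without E13.5 spinal cord replicate 3, which enters here only through the shared spread, 21 rose and 2 fell (background 27.1% and 44.2%). With both changes, 49 rose and 1 fell (background 34.9% and 34.5%). Leaving out E13.5 brain replicate 1 left 1 call.

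On the log2 scale of the fit, the member with the largest rise in brain was Atp5s. It stood at 4.23, 4.57 and 4.29 CPM in brain at E13.5 and 8.21, 8.43 and 8.21 at P7, and at 3.93, 4.8 and 4.22 in spinal cord at E13.5 and 9.59, 9.47 and 8.72 at P7. The ages were apart in both regions, and E13.5 spinal cord replicate 3 was not raised. Its differences were 0.85 ± 0.12 (SE), adjusted p = 5.01e-05 in brain and 1.02 ± 0.12 (SE), adjusted p = 7.21e-06 in spinal cord. On that scale Ndufa4l2 followed at 0.82 ± 0.28 (SE), adjusted p = 0.0228, and then Cox8a. By group means of CPM, Ndufa4l2 went from 0.574 at E13.5 to 1.38 at P7 in brain, a larger ratio than that of Atp5s. The constant added to CPM before the log is close to these Ndufa4l2 levels and shrinks its difference. The order of Atp5s and Ndufa4l2 therefore depends on that constant. With TMM scaling, Atp5s, Ndufa4l2 and Cox8a stood at 1.03, 0.96 and 0.86 in brain. Atp5o, the oligomycin sensitivity-conferring protein of the peripheral stalk, was the member that fell. It stood at 115, 113 and 166 CPM in brain at E13.5 and 86.7, 91.1 and 78.9 at P7, and at 69.9, 74.9 and 148 in spinal cord at E13.5 and 115, 111 and 109 at P7. All P7 brain libraries were below all E13.5 brain ones, and E13.5 brain replicate 3 was the highest library of the series. The fall was -0.59 ± 0.23 (SE), adjusted p = 0.0436, and with TMM scaling -0.40 ± 0.23 (SE), adjusted p = 0.158.

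**Figure D2:**
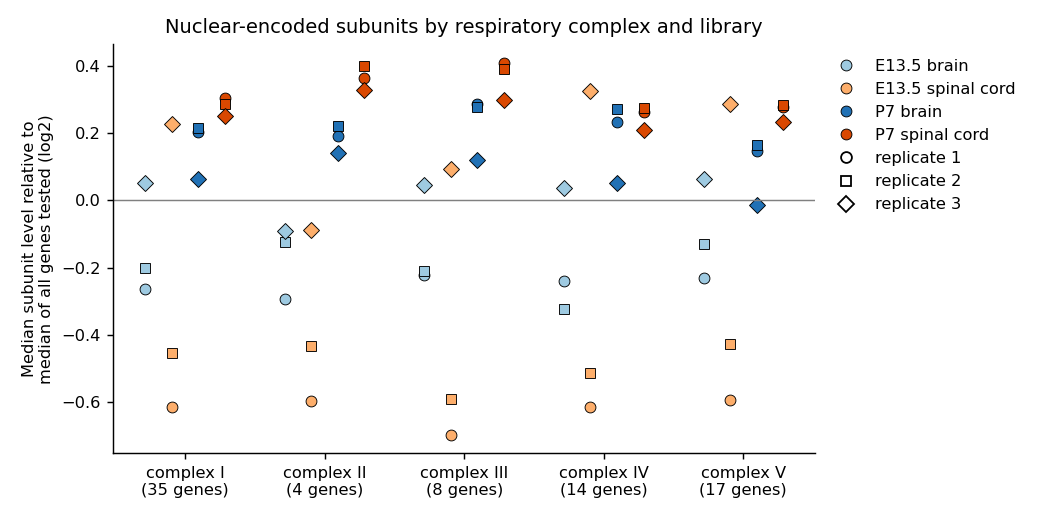
Median level of the tested subunit genes of each complex in each of the 12 libraries, each gene centred on its mean over libraries, minus the same median over all genes tested (vertical axis, log2). Colours give the group and marker shapes the replicate. E13.5 spinal cord replicates 1 and 2 sit lowest in all 5 complexes, replicate 3 of that group sits apart from them, and P7 spinal cord sits highest in complexes I, II and III.

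Across libraries, the members moved together in all 5 complexes. Relative to all genes, the median over the 78 members was -0.63 and -0.48 in E13.5 spinal cord replicates 1 and 2 and 0.25 in replicate 3. The brain libraries were at -0.24, -0.18 and 0.06 at E13.5 and 0.18, 0.20 and 0.06 at P7, and the P7 spinal cord ones at 0.30, 0.29 and 0.25. Replicate 3 was thus the highest of its group at E13.5 and the lowest of its group at P7, in both regions. In E13.5 spinal cord replicate 3, 74 of the 78 members lay above the mean of the other replicates. The median excess was 0.90 for members of up to 1631 bases and 0.57 for longer ones. Across the 78 genes, which are not independent, Pearson's r of this excess with log2 length was -0.40. E13.5 brain replicate 3 showed the same sign, with 73 of 78 members above the other replicates and a median excess of 0.31.

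**Figure D3:**
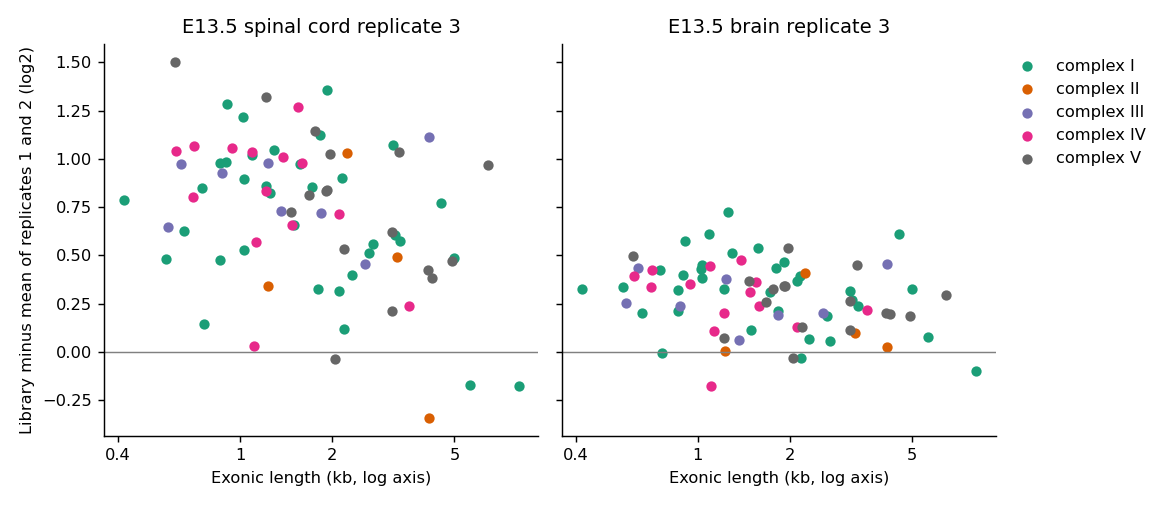
Excess of replicate 3 over the mean of replicates 1 and 2 (vertical axis, log2) for each of the 78 tested members against exonic length (horizontal axis, kb, log axis), for E13.5 spinal cord and E13.5 brain. In spinal cord 74 of 78 points lie above 0, and Ndufs1, the longest gene, lies below it.

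The regions were compared next, as brain minus spinal cord. At E13.5, 9 of 78 members were higher in brain and none was lower (background 17.9% and 14.7%), none over 2-fold (background 8.71%, 20 had an unadjusted p under 0.05, and limma-voom and edgeR also gave none over 2-fold). The member median was 0.21, against 0.05 over all genes. This comparison turned on E13.5 spinal cord replicate 3: without it 66 members were higher in brain (background 26.6%) and the median was 0.48, against 0.02. Leaving out E13.5 brain replicate 3 left 2 calls, and leaving out E13.5 spinal cord replicate 1 brought the member median level with that of all genes. Among those that passed, the largest differences were those of Uqcr10, a small subunit of complex III, at 0.56 ± 0.16 (SE), adjusted p = 0.0201, Atp5b at 0.49 ± 0.14 (SE), adjusted p = 0.0167, and Ndufa2, an accessory subunit of complex I, at 0.44 ± 0.15 (SE), adjusted p = 0.0447. These were 0.77, 0.61 and 0.60 without E13.5 spinal cord replicate 3. Uqcr10 stood at 25.7, 26.7 and 31.4 CPM in brain at E13.5 and 34, 35.1 and 28.9 at P7, and at 15, 17.2 and 25.5 in spinal cord at E13.5 and 43.4, 41.5 and 38.9 at P7. Its E13.5 brain and spinal cord libraries did not overlap, though spinal cord replicate 3 came close to the lowest brain library.

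At P7 no member was higher in brain and 17 were lower (background 5.74% and 24.2%), so calls were no more frequent than over all genes. None was over 2-fold (background 6.62%, 32 had an unadjusted p under 0.05, and limma-voom and edgeR each gave 1, Ndufa4l2, higher in brain). The order of the medians was the other way than at E13.5, also relative to all genes. The median was -0.38, against -0.19 for all genes. With TMM scaling, 1 was higher and 1 lower (background 8.34% and 9.50%), and the relative median changed little, from -0.19 to -0.17. The count also fell to 1 with P7 replicates 1 and 2 averaged and to 4 without P7 spinal cord replicate 2. The P7 brain libraries lay wholly below the P7 spinal cord ones for 71 members (91.0%, against 49.4% of all genes), and for 40 with TMM scaling (51.3%, against 29.0%). Without E13.5 spinal cord replicate 3, which affects this comparison only through the spread, 56 were lower and 1 higher (background 37.1% and 8.30%), and with TMM scaling as well 9 were lower and 1 higher (background 16.0% and 13.6%).

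Among the members that passed at P7, Uqcrfs1 and Atp5g2 were lower in brain, at -0.57 ± 0.16 (SE), adjusted p = 0.0192 and -0.56 ± 0.18 (SE), adjusted p = 0.035. With TMM scaling they stood at -0.38 (adjusted p = 0.137) and -0.37 (adjusted p = 0.197), so neither call was kept. Ndufa4l2 was the 1 member with a positive value, 0.73 ± 0.28 (SE), adjusted p = 0.068, and with TMM scaling 0.87 ± 0.28 (SE), adjusted p = 0.0488.

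The last test asked whether the region difference itself changed with age, as brain minus spinal cord at P7 minus the same at E13.5. For 31 of 78 members it fell and for none it rose (background 28.7% and 11.1%). The median was -0.57, against -0.24 for all genes. Atp5g2 and Ndufa12 passed 2-fold (background 9.66%). Without E13.5 spinal cord replicate 3, 74 passed (background 38.1%), 14 of them over 2-fold (background 13.3%). With TMM scaling, 13 passed (background 18.4%), none over 2-fold (background 6.75%), and without the library and with TMM scaling, 68 (background 28.3%). Ndufa12, an accessory subunit next to the matrix arm of complex I, stood at 31.7, 33.2 and 47.3 CPM in brain at E13.5 and 32, 31.6 and 29.7 at P7, and at 17.3, 20.7 and 37.6 in spinal cord at E13.5 and 41.3, 41.3 and 40.7 at P7. E13.5 spinal cord replicates 1 and 2 lay below the E13.5 brain libraries and replicate 3 among them, and all P7 brain libraries lay below P7 spinal cord. The change was -1.02 ± 0.32 (SE), adjusted p = 0.0248, for Atp5g2 -1.06 ± 0.26 (SE), adjusted p = 0.00623, and for Atp5b -0.98 ± 0.19 (SE), adjusted p = 0.00179. With TMM scaling Ndufa12 no longer passed, at -0.83 (adjusted p = 0.0671), while Atp5g2 stood at -0.87 (adjusted p = 0.0211) and Atp5b at -0.79 (adjusted p = 0.00826).

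Markers of other cells also differed between the groups. The summed level of 8 genes of differentiating oligodendrocytes was 15.0 to 63.5 CPM at E13.5 and, at P7, 1512 to 3792 in brain but 18153 to 24252 in spinal cord. The sum of 5 vascular and leptomeningeal markers was 5807 to 8799 CPM in brain and 10976 to 12455 in spinal cord at E13.5, and 1031 to 2557 at P7. That of 8 pericyte markers was 354 to 579 in brain and 634 to 743 in spinal cord at E13.5, and 285 to 342 and 100 to 168 at P7. That of 5 cycling genes was, at E13.5, 1547 to 1622 in brain and 628 to 706 in spinal cord, and at P7, 647 to 795 in brain and 977 to 1087 in spinal cord. The higher region at each age was the same for the cycling genes as for the subunit medians. With age they differed: the cycling sum was highest in E13.5 brain, the subunit sum in P7 spinal cord. The parts of these cells in the subunit differences were not tested. Pdgfra was at 341 to 787 CPM at E13.5 and 2014 to 3402 at P7. Striated muscle markers, 8 genes, summed to between 1.52 and 20.2 CPM, the highest in E13.5 spinal cord replicate 3.

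**Figure D4:**
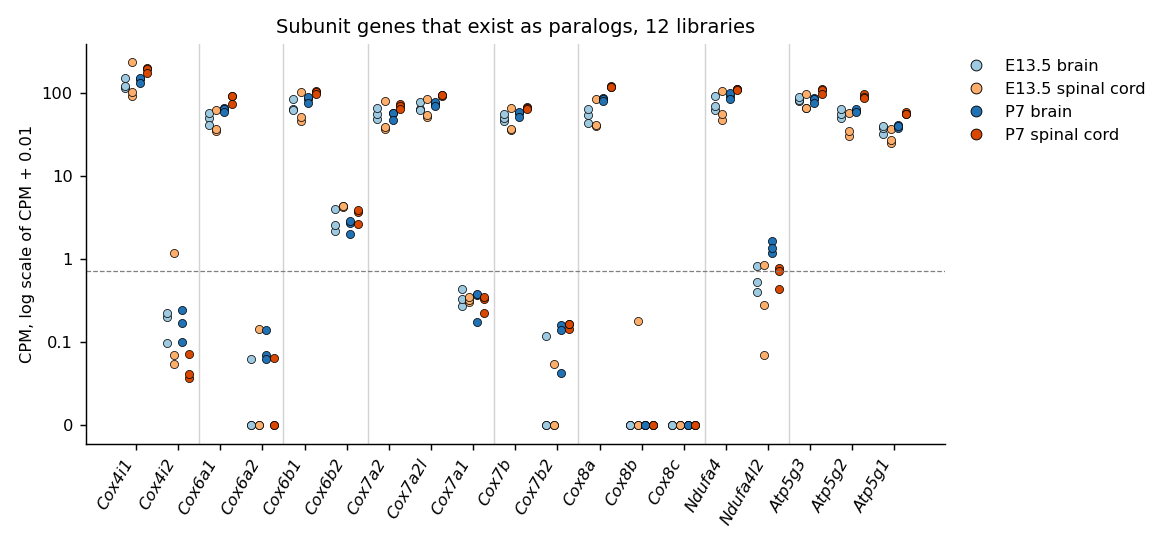
Level of each subunit gene that exists as paralogs in the 12 libraries (vertical axis, CPM on a log scale after adding 0.01, with genes at 0 placed at the bottom), grouped by family, with colours for the groups. The dashed line is the filter of 0.7 CPM. In every complex IV family the common form lies above 34.1 CPM in all libraries, and the restricted forms lie under 4.39 CPM.

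The paralogs were compared as pairs, common form against restricted form. In all 12 libraries the RNA of the common form of each complex IV subunit was far above that of its restricted form. These bulk data show neither protein nor single cells. Cox4i2, the form known from lung and for its link to oxygen, was between 0.027 and 1.18 CPM, with 39 reads over the 12 libraries. Cox6a2, a heart and skeletal muscle form, had 14 reads, Cox7a1, another muscle form, 96, Cox7b2 29, Cox8b, a muscle form, 1, and the testis form Cox8c none, a count that allows up to 0.0792 to 0.506 CPM a library (3 reads). These levels are too close to the limit of 3 reads for a ratio to be read. Cox6b2 was clearly present: its mean was 2.92 ± 0.99 CPM (SD, n = 3) in brain and 4.32 ± 0.086 in spinal cord at E13.5, and 2.52 ± 0.46 and 3.38 ± 0.69 at P7, while group means of Cox6b1 ran from 66.2 to 100.4.

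Ndufa4l2, a hypoxia-responsive relative of Ndufa4, was low, with 250 reads over the 12 libraries and fewer than 3 reads in 1 of them. It stood at 0.523, 0.395 and 0.804 CPM in brain at E13.5 and 1.18, 1.62 and 1.35 at P7, and at 0.0596, 0.267 and 0.844 in spinal cord at E13.5 and 0.432, 0.771 and 0.714 at P7. The E13.5 spinal cord libraries spread widely, and P7 brain was the highest group, above all others. Shmt2, at a mean of 33.1 CPM, overlaps it on the opposite strand. Ndufa4 itself stood at 68.8 to 109 CPM as group means.

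For the 3 subunit c genes, all members of the pairs were well above the filter. However, Gm10175 and Gm10231, the identical copies of Atp5g2, share its reads and held 45.0% to 56.5% of its CPM in each library. The shares and ratios below leave these copies out, so those of Atp5g2 may be too low. The order of the 3 genes with the copies added was not tested. Atp5g3 gave 47.5% ± 1.5 (SD, n = 3) of their summed CPM in brain and 52.1% ± 2.0 in spinal cord at E13.5, then 44.9% ± 1.7 and 41.5% ± 1.0 at P7. The share of Atp5g2 was 31.8% ± 1.1, 27.6% ± 2.7, 33.4% ± 0.6 and 35.9% ± 0.6 in the same order, and that of Atp5g1 20.6% ± 0.6, 20.3% ± 1.0, 21.7% ± 1.1 and 22.6% ± 0.5. Relative to Atp5g3, Atp5g2 was higher at P7 by 0.43 and Atp5g1 by 0.31 on the log2 scale, averaged over regions. The exact permutation test within regions gave p = 0.01 and p = 0.015 (two-sided, smallest possible 0.005), and 0.06 for both when adjusted over the 20 tests of 10 pairs. In 5 of these pairs the restricted form is too low for a ratio to be read. With that family a pair that alone reached the smallest p would stand at an adjusted 0.1, so these tests bear little on whether a ratio differed. The differences were 0.47 and 0.30 without E13.5 spinal cord replicate 3. Cox7a2l, a relative of Cox7a2 that helps join complexes III and IV into supercomplexes, differed from it by age by 0.14 (exact permutation p = 0.14, adjusted p = 0.35), and by 0.07 without that library. Ndufa4l2 against Ndufa4 differed by region by 0.58, higher in brain (exact permutation p = 0.015, adjusted p = 0.06). Ndufa4l2 is so low that the 0.5 CPM added to both genes weighs on this value.

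The mtDNA-encoded subunits of the same complexes were read in the same fit. Of these 13 genes, none passed by age in brain, where 61.3% of all genes passed in either direction. In spinal cord 1 fell, where 30.9% of all genes fell and 39.1% rose. That gene was mt-Nd5, a proton-pumping subunit of complex I, at -0.73 ± 0.22 (SE), adjusted p = 0.0109. None of the 13 passed by region at either age or for the change of the region difference by limma (1 had an unadjusted p under 0.05, between the regions at E13.5). Of all genes, 32.6%, 30.0% and 39.8% passed there. Their summed level at E13.5 was 9405 to 13966 CPM in brain, with 10446, 8903 and 20347 for the spinal cord libraries, and at P7 11015 to 11282 in brain and 11240 to 11661 in spinal cord. The summed level of the 84 nuclear genes was 4502 to 5626, then 3371, 3671 and 5697, then 5001 to 5384 and 6615 to 7034 CPM. The ratio of the mtDNA-encoded sum to the nuclear sum at E13.5 was 1.96 to 2.48 in brain and 2.42 to 3.57 in spinal cord, and at P7 2.08 to 2.20 and 1.62 to 1.70. The P7 spinal cord libraries thus had the lowest ratio of the 12. Without E13.5 spinal cord replicate 3, 2 mtDNA-encoded genes rose (all genes 44.0%) and 1 fell in spinal cord, with a median of 0.24 in place of -0.18.

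**Figure D5:**
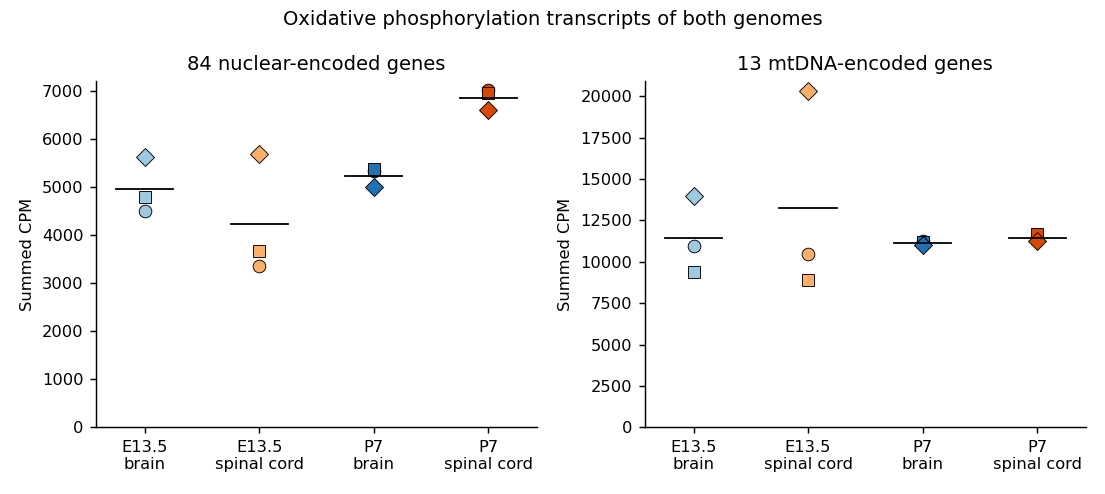
Summed CPM of the 84 nuclear-encoded (left) and the 13 mtDNA-encoded (right) genes in each library by group, with a bar at each group mean and marker shapes for the replicates (circle 1, square 2, diamond 3). On the left P7 spinal cord is above all other groups, and on the right the P7 groups lie within the E13.5 range, with E13.5 spinal cord replicate 3 at the top.

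Other mitochondrial genes of lists set for this work were read in the same fit. Of 15 citric acid cycle enzymes, 14 rose with age in spinal cord and 4 in brain, and none fell in either, where 39.1% of all genes rose in spinal cord and 23.7% in brain. The brain count is thus near that of all genes. It was 9 with TMM scaling (all genes 30.5%), and the median in brain was 0.28 above that of all genes. The largest rise was that of Idh3a, a subunit of isocitrate dehydrogenase, at 1.80 ± 0.11 (SE), adjusted p = 2.82e-08 in spinal cord and 1.04 in brain. Citrate synthase, Cs, rose in spinal cord (0.98 ± 0.10 (SE), adjusted p = 1.9e-06) and stood at 0.01 in brain (adjusted p = 0.909). Of 14 import, inner membrane and carrier genes, 13 rose in spinal cord, led by Tomm20, a receptor of the import pore, at 1.54, and Slc25a5, an ADP/ATP carrier, at 1.36. In brain 2 of them rose and 3 fell, and with TMM scaling 5 rose and 1 fell. Of 46 assembly factors tested, 29 rose and 4 fell in spinal cord (all genes 39.1% and 30.9%). There Sdhaf1, which serves complex II, gave 1.48 and Ndufaf2, which serves complex I, 1.27. In brain 7 rose and 8 fell (all genes 23.7% and 37.6%), and with TMM scaling 16 rose and 5 fell (all genes 30.5% and 28.7%). The brain medians of these 2 lists were 0.17 and 0.19 above that of all genes. In spinal cord 14, 13 and 33 genes of the 3 lists rose, in the order given, when E13.5 spinal cord replicate 3 was left out (all genes 44.0%).

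Of the subunits and carriers that the name rule misses, 4 of 7 rose in spinal cord (all genes 39.1%). These included cytochrome c, Cycs (0.88 ± 0.18 (SE), adjusted p = 0.000754), cytochrome c1, Cyc1 (0.51), and the complex IV factors Higd1a (1.24) and Higd2a (1.05). Without E13.5 spinal cord replicate 3, 6 of 7 rose (all genes 44.0%). In brain 2 rose and 1 fell (all genes 23.7% and 37.6%), and with TMM scaling 2 rose and none fell (all genes 30.5% and 28.7%). The region difference of Cycs changed with age as that of the subunits did (-1.09 ± 0.25 (SE), adjusted p = 0.00492). Among 18 regulators of mitochondrial genes, 5 rose and 6 fell in spinal cord (all genes 39.1% and 30.9%), and 3 rose and 6 fell in brain (all genes 23.7% and 37.6%). With TMM scaling 6 rose and 5 fell in brain (all genes 30.5% and 28.7%). Without E13.5 spinal cord replicate 3, when 17 were tested, 6 rose (all genes 44.0%) and 7 fell in spinal cord. Ppargc1a, the coactivator PGC-1alpha, stood at 3.9, 5.45 and 4.88 CPM in brain at E13.5 and 11.9, 13.2 and 12.3 at P7, and at 6.25, 7.51 and 6.07 in spinal cord at E13.5 and 7.75, 7.22 and 7.17 at P7. All P7 brain libraries were above all others, with a difference with age of 1.32 ± 0.14 (SE), adjusted p = 4.52e-06 in brain and 0.15 ± 0.14 (SE), adjusted p = 0.347 in spinal cord. Polg, the mtDNA polymerase, rose in both regions, by 1.42 and 1.87, and Esrrg, an orphan nuclear receptor, fell in both, at -1.34 and -2.15.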

How the data were processed

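Total RNA of sorted GFP+ cells was sequenced from 12 libraries, 3 replicate pools in each of 4 groups named by title. As the study describes, stranded libraries were aligned with STAR 2.5.0a to mm10 and counted per GENCODE M8 gene with featureCounts 1.5.0-p1, sharing multi-mapping reads fractionally before rounding. Counts over a rescaled library size were deposited by the authors as CPM, named a signal here in the 3 columns whose sum exceeds that of CPM proper. All values (100.0%, within 0.01 of a read) were whole multiples of 1 read, so counts were recovered. No column was left out (0).

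Genes at 0.7 CPM or more in 3 libraries were tested with limma 3.58.1 (trend) on log2(CPM + 0.5), with 1 mean per group, Benjamini-Hochberg adjustment over all genes tested, and differences with their SE on that log2 scale. The study used limma-voom, run here as an alternative with edgeR 4.0.16 and DESeq2 1.42.0 size factors. Paralog ratios were tested by exact permutation. The fit was tested on simulated data that had the same variability setting for every gene and no library that stood apart. That test therefore does not cover a library such as E13.5 spinal cord replicate 3. Positions, lengths and symbols came from GENCODE M21 on the same build. Named genes were paralog pairs, core subunits, the 3 largest differences each way per comparison, the extremes per complex and up to 4 genes per list, of which a few are not reported here. The members and lists were chosen with earlier results of these data known. Intervals of depth cover counting error only. P7 replicates 1 and 2 were closer than other pairs, yet differed beyond counting error (chi-square per degree of freedom 2.43 and 3.65). Such an excess does not tell whether they came from separate pools. The study describes 3 pooled biological replicates per stage and region, and the 2 were kept as separate libraries. Counts that moved when they were averaged are given below.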

Additional observations from a re-analysis of the deposited data

Results flagged for a closer look

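The difference between brain and spinal cord differed between the ages for 31 of the 78 members by the interaction term of the limma fit at an adjusted p under 0.05. All were in the direction of a lower P7 than E13.5 value of brain minus spinal cord, in which 28.7% of all genes passed. The largest were Atp5g2 at -1.06, Ndufa12 at -1.02 and Atp5b at -0.98 on the log2 scale. Without E13.5 spinal cord replicate 3 they stood at -1.33, -1.34 and -1.11, and with TMM scaling at -0.87, -0.83 and -0.79, where Ndufa12 no longer passed (adjusted p = 0.0671). With TMM scaling 13 members passed, beside 18.4% of all genes in the same direction, so the count was not above that of all genes. For Atp5g2, Ndufa12 and Atp5b the E13.5 brain mean was above the E13.5 spinal cord mean and the P7 brain mean below the P7 spinal cord mean.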

How the results depend on the processing

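Calls are members of 78 at an adjusted p under 0.05, in either direction, with those over 2-fold given separately. For age in brain (9 calls, 0 over 2-fold), TMM scaling gave 22 and 1, median-ratio scaling 25 and 1, the P7 replicates 1 and 2 averaged gave 1 call, and limma-voom and edgeR 1 over 2-fold each. For age in spinal cord over 2-fold (13), median-ratio scaling gave 8 and the length and GC correction 7. For the regions at E13.5 (9 calls), median-ratio scaling gave 4, limma-voom 21 and averaged P7 replicates 5. For the regions at P7 (17 calls), no filter gave 11, TMM and median-ratio scaling 2 each, limma-voom 31 and averaged P7 replicates 1, and limma-voom and edgeR 1 over 2-fold each. For the change of the region difference (31 calls, 2 over 2-fold), TMM scaling gave 13 and 0, median-ratio scaling 6 and 0, limma-voom 49 and 5, averaged P7 replicates 15 and 1, and the length and GC correction 0 over 2-fold. The causes were not tested.

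Whether the replicate numbers pair the libraries could not be settled. Same-numbered brain and spinal cord libraries correlated at 0.31, 0.082 and 0.41 at E13.5 and at 0.013, 0.025 and 0.044 at P7. All were positive, but not every library correlated best with its own number. The main fit used no pairing, and a fit with the replicate number as a block is given beside it. With the replicate block, 18 members passed for age in brain, 69 for age in spinal cord, 29 for the regions at E13.5, 53 at P7 and 55 for the change, where 65.5%, 73.0%, 37.8%, 35.8% and 45.7% of all genes passed (61.3%, 70.0%, 32.6%, 30.0% and 39.8% without the block). With the block and the length and GC correction the counts were 26, 65, 18, 48 and 48, with 7 over 2-fold for age in spinal cord and 0 for the change.

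Leaving out each library in turn gave 1 to 23 calls for age in brain (0 over 2-fold throughout), 49 to 76 for age in spinal cord (5 to 34 over 2-fold), 2 to 66 for the regions at E13.5 (0), 4 to 57 at P7 (0) and 20 to 74 for the change (0 to 14). The highest count came without E13.5 spinal cord replicate 3 in all 5. The lowest came without E13.5 brain replicate 1, E13.5 spinal cord replicate 1, E13.5 brain replicate 3, and, for the last 2, P7 spinal cord replicate 2. The member median minus the median of all genes ranged from 0.23 to 0.38, 0.40 to 0.81, -0.0016 to 0.46, -0.21 to -0.14 and -0.64 to -0.15 in the same order. Leaving out that library together with TMM scaling, chosen after seeing the data, gave 50, 76, 65, 10 and 68 calls, with 1, 34, 0, 0 and 6 over 2-fold. For the same 3 comparisons whose median moved there, age in spinal cord, the regions at E13.5 and the change, it stood at 0.81, 0.46 and -0.62. Cox4i1 between the regions at E13.5, at -0.02 and not called with all libraries, ranged from -0.27 to 0.41 as each library was left out and was called at 0.41 without E13.5 spinal cord replicate 3, also with TMM scaling. The paralog ratio tests (0 calls) could not pass for a lone pair, so their alternatives say nothing of stability.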

Other observations

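Stretches of the subunit genes that recur in other genes were searched for among annotated transcripts, on both strands. Of the 78 tested members, 33 held a stretch of at least 100 bases at 95% identity or more in another annotated gene, 19 in an annotated pseudogene, and 14 shared over 50% of their main transcript. Genes that overlap a member at the same place were not left out, so a match need not be a copy. For Cox4i1, the only matching gene had the same mean, 38.5 CPM, as Emc8, which overlaps it on the opposite strand. Atp5l, a small subunit of ATP synthase, matched 11 other genes, more than any other tested member, and is named here after its values were seen. Its copy Gm10221 (chr5:24581554-24581862, GRCm38) held 16.1, 16.6 and 15.5 CPM in P7 spinal cord.

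Both identical copies of Atp5g2 were measured. Gm10175 (chr7:23946646-23947290, GRCm38) stood at 13.4, 16.8 and 16.4 CPM in brain at E13.5 and 18.1, 17.8 and 15.7 at P7, and at 7.74, 9.2 and 13.8 in spinal cord at E13.5 and 25.4, 26.8 and 23.7 at P7, and Gm10231 (chr17:5816200-5816640) at 11.4, 14.7 and 14.5 CPM in brain at E13.5 and 15.5, 15 and 13.4 at P7, and at 6.31, 7.96 and 12 in spinal cord at E13.5 and 21.9, 22.8 and 20.7 at P7. Their P7 minus E13.5 differences in spinal cord were 1.30 ± 0.17 and 1.31 ± 0.19 (SE, limma, adjusted p = 2.34e-05 and 3.90e-05), beside 1.19 for Atp5g2. Since reads that match several places were shared out among them, these 3 values are not separate measurements.

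Several members, named after their values were seen, lie over an expressed gene on the opposite strand. Cox6c, a complex IV subunit at a mean of 85.5 CPM, overlaps Vps13b (207 CPM), Atp5j, a peripheral stalk subunit at 50.9 CPM, overlaps Gabpa (90.2 CPM), and Ndufb2, at 17.0 CPM, overlaps Braf (109 CPM). The use of strand in counting was not given in the sources used here.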
